A study of Homo sapiens with 6 samples.

Results

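Orphan and adhesion G protein-coupled receptors were followed in A375 cells in which SOX10 had been targeted. Members were the protein-coding genes of the count table whose GENCODE release 29 symbol is GPR followed by a number or begins with ADGR, with GPR143, a pigment cell receptor, left out. There were 107 members among 58721 genes: 29 adhesion receptors (ADGR) and 78 genes with a GPR name. The RNA sequencing data came from 6 libraries of A375, an established human melanoma line with a mutant BRAF gene. The control group held 3 libraries of cells labelled as wild type that had received a guide RNA against mCherry, a fluorescent protein gene that human cells lack. The knockout group held 3 libraries of cells with a guide RNA against SOX10, which codes for a transcription factor that specifies neural crest, glia and melanocytes. Both were grown in DMEM with serum. The labels do not say whether the SOX10-targeted cells were pooled or 1 clone, nor whether the 3 libraries of a group came from separate cultures. A p-value below therefore reflects the scatter of these libraries, and that scatter may be technical. Means are given ± SD (n = 3 libraries) from control to knockout.

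G protein-coupled receptors cross the membrane with a bundle of helices and pass a signal from outside the cell to heterotrimeric G proteins. Adhesion receptors carry in addition a very long extracellular part with adhesion domains, which most of them cut by themselves next to the membrane. The freed stump can then act as a built-in agonist when the outer part is pulled off by matrix or by a neighbouring cell. The GPR symbols were given to receptor genes found by sequence before any ligand was known; some have since gained a ligand, and some code for multi-pass proteins of inner membranes rather than cell surface receptors. In the SOX10 lineages, ADGRG6 is known for its part in the myelination program of Schwann cells, and ADGRG1 has been studied as a receptor that restrains melanoma spread.

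Library totals ran from 70075002 to 78148565 counts. Values are CPM, counts scaled to a common library size with the TMM factors of edgeR, and 3 counts, taken as the floor, stood at 0.0383 to 0.0417 CPM. Floors cover counting error only. SOX10 itself held between 17.7% and 20.4% of its control mean in the knockout libraries. Of 10 melanocyte lineage markers 9 were tested, 2 of them higher and 5 lower in knockout libraries, and the pigment enzyme gene TYR had at most 3 counts in any library. The summed level of these markers was 359 to 369 CPM in control and 203 to 216 CPM in knockout libraries, most of the control sum being SOX10 itself. Without SOX10 the direction of the sum turned: the other 9 summed to 128 to 136 CPM in control and 162 to 168 CPM in knockout libraries. MITF, the melanocyte master regulator, rose by more than this sum did, from 57.5 ± 2.15 to 138 ± 2.29 CPM (log2 fold change 1.27, adjusted p = 9.86e-07 in edgeR). S100B fell from 32.9 ± 4.34 to 1.28 ± 0.134 CPM (log2 fold change -4.68, adjusted p = 1.17e-07 in edgeR). RAB38, PAX3 and DCT also passed downward, and TYRP1, at a low level, was the only other marker past the threshold upward. The 8 Schwann cell and neural crest markers summed to 624 to 678 CPM in control and 65.0 to 73.3 CPM in knockout libraries, 1 of them higher and 7 lower.

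Most members with enough counts to be tested differed between the groups, and the adhesion receptors that did so were more often higher than lower. Of the 107 members, 22 had 0 counts in every library, 36 had counts but fell below the filter on low counts, and 49 were tested. Of these 49, 18 were higher and 13 lower in knockout libraries (quasi-likelihood test of edgeR, p adjusted by Benjamini-Hochberg over all genes tested, threshold 0.05). Those 31 made up 63.3% of the tested members, beside 28% of all 19263 tested genes and 33% of the tested protein-coding genes. All 31 also had groups that did not overlap, as did 3 members that did not pass, beside 41.6% of all tested genes. A 2-fold or larger change was seen in 14 members (28.6% of those tested), 8 upward and 6 downward, beside 10.8% of all tested genes. The filter keeps a gene that is abundant in 1 group alone, such as ADGRD1, ADGRF4, GPR1 and GPR62, so such a gene was likely to differ. These shares therefore describe the tested members and not all 107. The median log2 fold change was 0.11 over the tested members and -0.02 over all tested genes. In bulk RNA, fewer cells with a transcript and less of it per cell cannot be told apart.

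**Figure D1:**
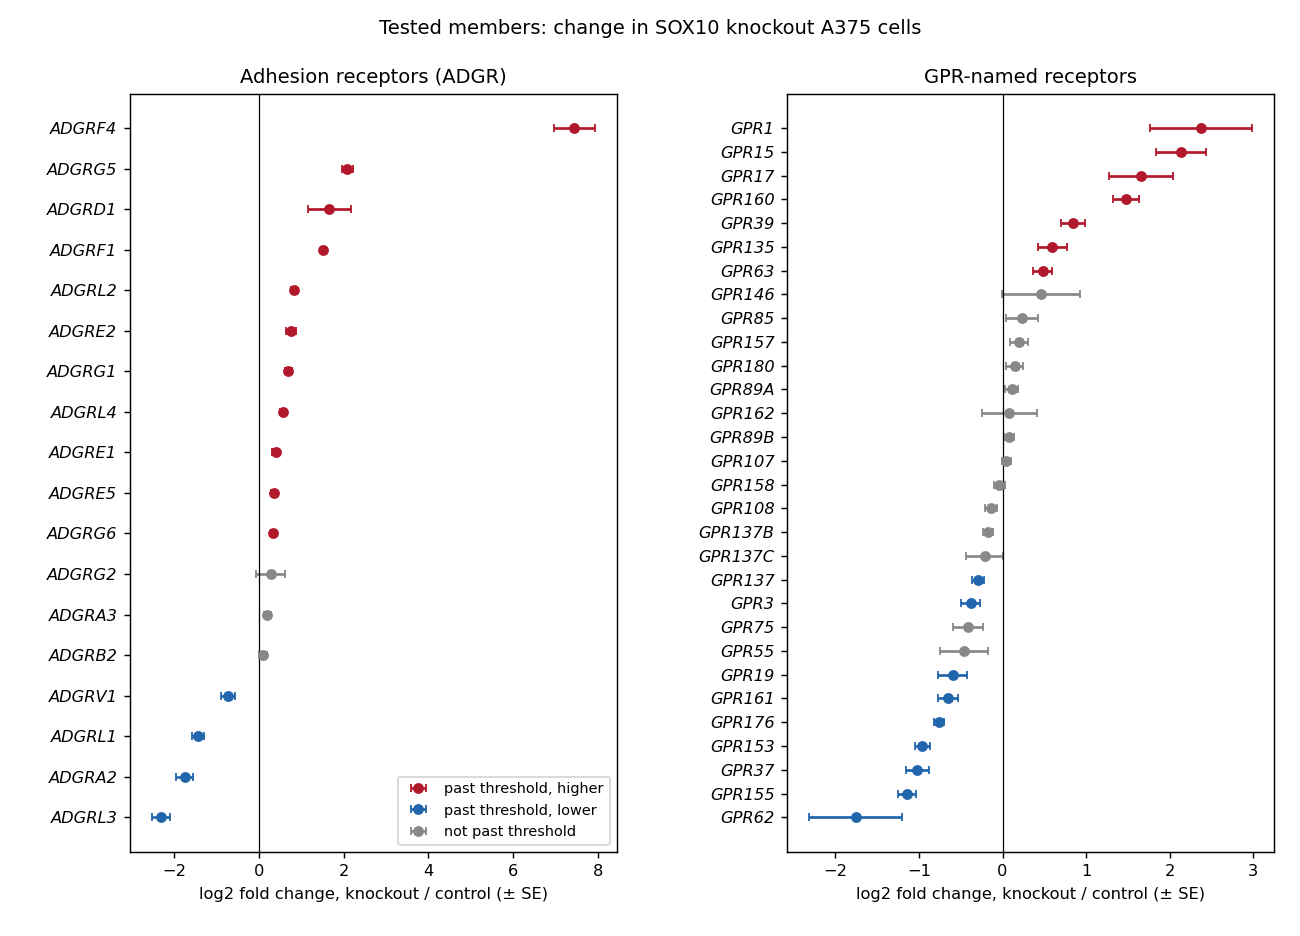
Log2 fold change of knockout against control (horizontal axis) with its standard error for the 18 tested adhesion receptors (left) and the tested GPR-named members reported here (right). Red and blue points passed the threshold upward and downward, grey points did not. Among adhesion receptors 11 points are red and 4 blue; among GPR-named members 7 are red and 9 blue.

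Of the 18 tested adhesion receptors 11 were higher and 4 lower, with a median log2 fold change of 0.37. Of the 31 tested GPR-named members 7 were higher and 9 lower, with a median of -0.04. Beside these, 14% of all tested genes were higher and 14% lower. The CPM of all adhesion receptors together summed to 463, 448 and 422 in control and 646, 623 and 580.2 in knockout libraries, so the groups stood apart. For the GPR-named members the sums were 469, 465 and 473 in control and 447, 448 and 445 in knockout libraries, a narrower gap in the other direction. Whether the adhesion and the GPR-named genes differ from each other in their response was not tested. Fibroblast markers that passed were also mostly higher: of 10, all tested, 7 were higher and 1 lower, and their sum was 16.8 to 20.1 CPM in control and 28.1 to 30.3 CPM in knockout libraries, with none at 0. POSTN, the periostin gene, rose from 0.120 ± 0.0705 to 1.99 ± 0.0917 CPM (log2 fold change 4.04, adjusted p = 1.88e-05 in edgeR) and FAP from 0.353 ± 0.0568 to 2.11 ± 0.340 CPM (log2 fold change 2.58, adjusted p = 2.88e-05 in edgeR). POSTN could be tested only because of its knockout libraries. PDGFRA was the marker that fell, from 1.54 ± 0.174 to 0.939 ± 0.237 CPM (log2 fold change -0.72, adjusted p = 0.0329 in edgeR), and DCN and PDGFRB did not pass. Without LUM, the highest in control, the other 9 summed to 9.997 to 12.3 CPM in control and 14.2 to 15.7 CPM in knockout libraries. The part of fibroblast markers in the adhesion receptor results was not tested.

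Subfamily L, which holds the latrophilins, adhesion receptors that bind teneurins and FLRT proteins on neighbouring cells, split into 2 genes that rose and 2 that fell. ADGRL3 (ENSG00000150471; chromosome 4, 61201258 to 62078335, plus strand) stood at 2.89, 2.67 and 2.37 CPM in control and 0.431, 0.434 and 0.727 CPM in knockout libraries. Every knockout library lay well below every control library, and the mean fell 4.98-fold (log2 fold change -2.31 with SE 0.22, adjusted p = 7.52e-05 in edgeR). ADGRL1 (ENSG00000072071; chromosome 19, 14147743 to 14206187, minus strand) was the more abundant of the pair, with 24.6, 21.8 and 17.3 CPM in control and 8.66, 8.24 and 6.52 CPM in knockout libraries. Its groups did not overlap, although control libraries spread widely, and it fell 2.72-fold (log2 fold change -1.44 with SE 0.15, adjusted p = 1.41e-04 in edgeR). ADGRL2, in contrast, rose: it stood at 48.2, 46.2 and 43.6 CPM in control and 83.6, 82.7 and 76.6 CPM in knockout libraries, 1.76-fold higher (log2 fold change 0.82 with SE 0.07, adjusted p = 3.31e-05 in edgeR). ADGRL4, a latrophilin relative known from endothelial cells, was measured at 11.97, 12.03 and 13.3 CPM in control and 18.5, 18.4 and 18.6 CPM in knockout libraries. It rose 1.49-fold (log2 fold change 0.58 with SE 0.07, adjusted p = 3.58e-04 in edgeR), with the 3 knockout libraries close together above all controls. Endothelial markers were low in the same libraries: of 8, 5 were tested, 2 higher and 1 lower, and their sum was 8.001 to 10.3 CPM in control and 4.52 to 5.34 CPM in knockout libraries, with none at 0 in every library. KDR, a VEGF receptor gene, made up most of the control sum and fell from 6.32 ± 1.10 to 0.175 ± 0.128 CPM (log2 fold change -5.13, adjusted p = 1.33e-05 in edgeR). The other 7 summed to 2.51 to 2.85 CPM in control and 4.46 to 5.10 CPM in knockout libraries, and of these the endothelial junction genes CDH5 and PECAM1 rose, from 0.431 ± 0.121 to 1.96 ± 0.0579 CPM (log2 fold change 2.18, adjusted p = 7.16e-05 in edgeR) and from 0.293 ± 0.0877 to 1.13 ± 0.156 CPM (log2 fold change 1.95, adjusted p = 5.89e-04 in edgeR). Their part in the ADGRL4 result was not tested. ADGRL1 overlaps an antisense gene and ADGRL2 a processed pseudogene that were also tested.

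The upstream sequence of ADGRL3, the member with the largest fall among those of at least 1 CPM, is shown because it holds a copy of the core SOX motif, while that of ADGRF1, a member that rose, does not. The core ACAAAG was searched on both strands in the 250 bases before the RefSeq start (RefSeq table, GRCh38.p14), where it reads CTTTGT when it lies on the other strand. Sequences run 5′ to 3′ on the strand of the gene, with a motif in capitals.
ADGRL3, chr4:61200076-61200325, plus strand: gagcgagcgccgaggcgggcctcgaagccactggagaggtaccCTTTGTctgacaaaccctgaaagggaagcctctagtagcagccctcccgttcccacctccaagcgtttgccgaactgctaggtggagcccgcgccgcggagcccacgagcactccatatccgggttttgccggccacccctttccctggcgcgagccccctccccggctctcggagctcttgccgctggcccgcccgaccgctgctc
ADGRF1, chr6:47042364-47042582, minus strand: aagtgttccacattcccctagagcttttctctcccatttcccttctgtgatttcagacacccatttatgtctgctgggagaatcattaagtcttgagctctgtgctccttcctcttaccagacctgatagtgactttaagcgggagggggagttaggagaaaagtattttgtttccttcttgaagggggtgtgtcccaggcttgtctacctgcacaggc
The ADGRF1 sequence is printed up to the start of the GENCODE gene, 31 bases before the RefSeq start. In ADGRL3 the motif begins 207 bases before the RefSeq start, which itself lies 932 bases upstream of the GENCODE start. No copy was found in the windows of GPR153 and GPR160, the other members that the same rule picked. ADGRG5 rose more than GPR160, and ADGRL1, GPR155 and GPR37 fell more than GPR153, but these members had no entry. Entries existed for 76 members: 2 of 13 higher members, 2 of 7 lower members and 2 of 14 tested members that did not pass and 8 of 42 members that were not tested held the motif, beside 13.7% of all 27305 promoters in the table. A match of letters is a description and does not show that SOX10 binds there, and these windows do not cover distant enhancers.

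Subfamily F had 2 tested genes, and both rose more than 2-fold. ADGRF1, also known as GPR110 (ENSG00000153292; chromosome 6, 46997703 to 47042363, minus strand), was measured at 22.5, 22.3 and 22.9 CPM in control and 65.3, 62.4 and 65.2 CPM in knockout libraries. Libraries of each group were within a few CPM of each other and the groups lay far apart, a 2.85-fold rise (log2 fold change 1.51 with SE 0.06, adjusted p = 4.40e-07 in edgeR). ADGRF4 (ENSG00000153294; chromosome 6, 47685864 to 47722021, plus strand) had 1 count in a single control library and 0 in the others, against 249 counts over the knockout libraries. Its values were 0.0139, 0 and 0 CPM in control and 1.13, 1.12 and 1.02 CPM in knockout libraries, which put all control libraries below the floor and all knockout libraries above it. The ratio of the summed counts was 238, with an exact 95% counting interval of 42.3 to 9422, and the gene passed the test (adjusted p = 7.75e-06 in edgeR). ADGRF4 could be tested only because of its knockout libraries. Of the remaining members of the subfamily, ADGRF2 had no counts, and ADGRF3 and ADGRF5, the latter known from lung and kidney, were below the filter.

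Subfamily G, to which the myelination receptor belongs, had 3 members that rose and none that fell. ADGRG5 (ENSG00000159618; chromosome 16, 57542421 to 57591681, plus strand), described mostly in leukocytes, stood at 0.876, 0.836 and 0.749 CPM in control and 3.52, 3.59 and 3.37 CPM in knockout libraries. Groups did not overlap and the spread within them was small, giving a 4.26-fold rise (log2 fold change 2.09 with SE 0.13, adjusted p = 5.04e-06 in edgeR). ADGRG1, the collagen III receptor also called GPR56 (ENSG00000205336; chromosome 16, 57610652 to 57665580, plus strand), was far more abundant, at 83.1, 80.6 and 72.7 CPM in control and 137, 127 and 116 CPM in knockout libraries. Every knockout library exceeded every control library, and the mean rose 1.61-fold (log2 fold change 0.69 with SE 0.08, adjusted p = 3.22e-04 in edgeR). ADGRG6, known as GPR126 (ENSG00000112414; chromosome 6, 142301854 to 142446266, plus strand), was measured at 75.3, 74.1 and 72.4 CPM in control and 98.2, 94.6 and 87.9 CPM in knockout libraries. It rose by less, 1.27-fold (log2 fold change 0.34 with SE 0.06, adjusted p = 0.00395 in edgeR), while the Schwann cell marker sum given above was lower in the same libraries, and any part of it in this result was not tested. ADGRG2, best known from the epididymis, averaged 0.306 ± 0.114 (control) and 0.369 ± 0.0792 CPM (knockout) and missed the threshold (log2 fold change 0.27, 95% interval -0.52 to 1.07, adjusted p = 0.628 in edgeR). ADGRG4 had no counts, and ADGRG3 and ADGRG7 were below the filter.

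Subfamily E receptors carry EGF-like repeats and are best known from leukocytes, and all 3 that were tested rose. ADGRE5, the CD97 antigen, which binds CD55 (ENSG00000123146; chromosome 19, 14380501 to 14408725, plus strand), was at 70.7, 72.5 and 66.5 CPM in control and 92.9, 92.1 and 83.9 CPM in knockout libraries, a modest 1.28-fold rise with no overlap (log2 fold change 0.36 with SE 0.07, adjusted p = 0.00412 in edgeR). ADGRE2 was at 5.02, 5.37 and 5.02 CPM in control and 9.67, 9.08 and 7.31 CPM in knockout libraries and rose 1.69-fold (log2 fold change 0.76 with SE 0.12, adjusted p = 0.00138 in edgeR). ADGRE1, the human counterpart of the mouse macrophage antigen F4/80, stood at 13.4, 13.8 and 15.6 CPM in control and 18.6, 18.1 and 19.4 CPM in knockout libraries and rose 1.31-fold (log2 fold change 0.39 with SE 0.08, adjusted p = 0.00652 in edgeR). ADGRE3 had 1 count in all. ADGRE2 and ADGRE5 share near-identical EGF repeats, so reads there may be split or discarded, and ADGRE2 overlaps ZNF333 on the opposite strand. Of 10 leukocyte markers 3 were tested, 1 higher and 1 lower. Their sum was 11.2 to 14.5 CPM in control and 2.21 to 2.92 CPM in knockout libraries. TYROBP was at 0 in every library, MS4A1 and ITGAM had at most 3 counts in each, and the general leukocyte antigen gene PTPRC averaged 0.0634 ± 0.0634 (control) and 0.0259 ± 0.0335 CPM (knockout). Most of the control sum was LYZ, the lysozyme gene, at 12.1 ± 1.80 (control) and 1.64 ± 0.360 CPM (knockout). Without LYZ the sum was 0.361 to 0.661 CPM in control and 0.805 to 1.22 CPM in knockout libraries, and CSF1R, the macrophage growth factor receptor gene, rose from 0.174 ± 0.107 to 0.748 ± 0.159 CPM (log2 fold change 2.09, adjusted p = 0.00462 in edgeR). Control libraries held 21, 11 and 6 counts of CSF1R, so its knockout libraries were needed for it to pass the filter. The part of leukocyte genes in the subfamily E results was not tested.

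**Figure D2:**
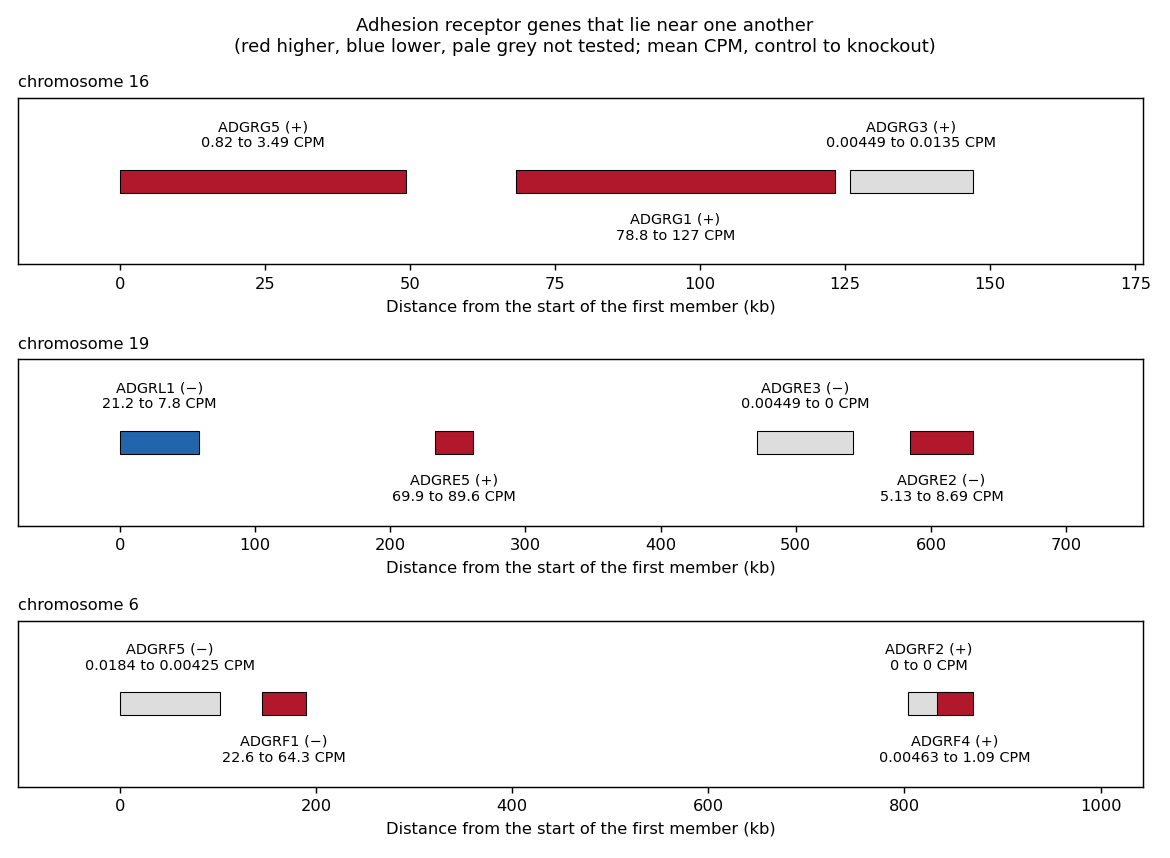
Position of adhesion receptor genes that lie near one another on chromosomes 16, 19 and 6, as distance in kb from the start of the first gene shown, with strand and mean CPM from control to knockout. ADGRG5 and ADGRG1 are neighbours and both are higher; ADGRL1 is lower while ADGRE5 and ADGRE2 on the same stretch are higher; ADGRF5 and ADGRF2 next to the rising ADGRF1 and ADGRF4 are at or near 0.

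Several of these genes sit in clusters, which the choice of members did not use. On chromosome 16, ADGRG5, ADGRG1 and ADGRG3 span 147 kb on 1 strand, and 2 of the 3 rose while ADGRG3 had almost no reads. Of 8 other protein-coding genes tested within 250 kb of this cluster 1 was higher and 2 lower. On chromosome 19, ADGRL1, ADGRE5, ADGRE3 and ADGRE2 lie within 631 kb, where ADGRL1 fell and the 2 tested subfamily E genes rose. Among 19 other protein-coding genes tested around them 1 was higher and 9 lower. On chromosome 6, ADGRF5 and ADGRF1 form 1 pair and ADGRF2 and ADGRF4 another, and in each pair a single gene was transcribed at a testable level. Around these pairs 1 of 5 and 1 of 2 other tested genes were higher, and 2 and 0 lower.

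Of the remaining adhesion receptors 2 fell and 1 rose. ADGRA2, also called GPR124, works with RECK as a co-receptor for WNT7 proteins (ENSG00000020181; chromosome 8, 37784191 to 37844896, plus strand) and stood at 3.63, 2.87 and 2.51 CPM in control and 0.723, 0.907 and 1.02 CPM in knockout libraries. All knockout libraries were below all controls, and it fell 3.40-fold (log2 fold change -1.76 with SE 0.19, adjusted p = 1.93e-04 in edgeR). ADGRV1, a giant receptor of hair cell and photoreceptor links that is mutated in Usher syndrome (ENSG00000164199; chromosome 5, 90529344 to 91164437, plus strand), stood at 10.6, 9.33 and 8.56 CPM in control and 7.17, 4.98 and 5.00 CPM in knockout libraries and fell 1.66-fold (log2 fold change -0.73 with SE 0.15, adjusted p = 0.00786 in edgeR). ADGRA2 overlaps BRF2, and ADGRV1 overlaps LYSMD3 and LUCAT1, on the opposite strand. ADGRD1, also called GPR133, rose from a very low level: it was measured at 0.0834, 0.0270 and 0.125 CPM in control and 0.347, 0.179 and 0.230 CPM in knockout libraries (log2 fold change 1.66 with SE 0.51, adjusted p = 0.0420 in edgeR). ADGRD1 could be tested only because of its knockout libraries. Leaving out control replicate 1 or 2 gave adjusted p = 0.0936 and 0.131, and leaving out knockout replicate 1, 2 or 3 gave 0.123, 0.0607 and 0.0849. ADGRA3 was the most abundant adhesion receptor that did not pass, at 85.4, 79.2 and 73.1 CPM in control and 95.3, 93.5 and 82.3 CPM in knockout libraries, with overlapping groups (log2 fold change 0.19, 95% interval -0.00 to 0.38, adjusted p = 0.132 in edgeR). ADGRB2, of the brain angiogenesis inhibitor subfamily, averaged 4.31 ± 0.390 (control) and 4.61 ± 0.219 CPM (knockout) and missed the threshold (log2 fold change 0.10, 95% interval -0.14 to 0.33, adjusted p = 0.556 in edgeR). ADGRB1 and ADGRB3 were below the filter, and ADGRA1 and ADGRD2 had no counts.

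**Figure D3:**
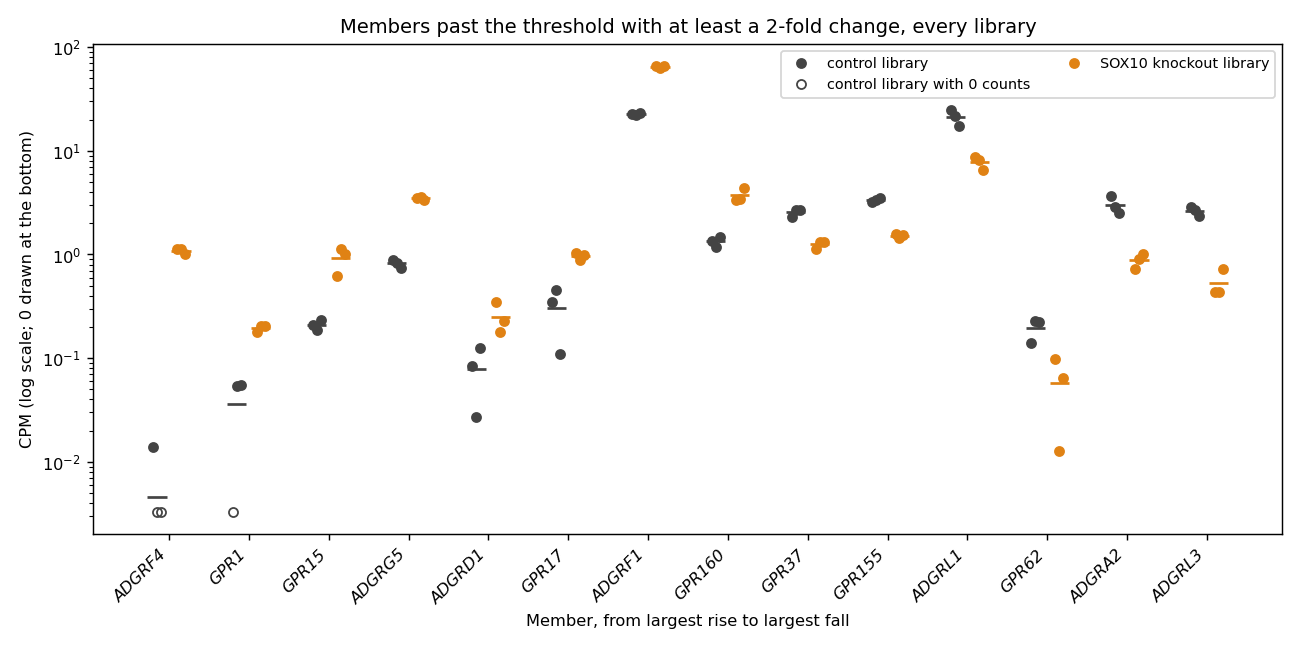
CPM on a log scale in each of the 6 libraries for the 14 members past the threshold with at least a 2-fold change, ordered from the largest rise to the largest fall. Points are libraries, short lines group means and open points libraries with 0 counts. In each of the 14 the 3 knockout libraries lie on the same side of the 3 control libraries.

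Among GPR-named members, GPR37 and GPR62 fell and GPR17 rose, all of them genes known from the oligodendrocyte lineage. GPR37, a receptor that has been linked to prosaposin (ENSG00000170775; chromosome 7, 124745997 to 124765627, minus strand), stood at 2.28, 2.68 and 2.66 CPM in control and 1.13, 1.32 and 1.31 CPM in knockout libraries. Its groups lay apart and it fell 2.03-fold (log2 fold change -1.02 with SE 0.14, adjusted p = 6.89e-04 in edgeR). Its close relative GPR37L1, an astrocyte receptor, was below the filter. GPR17, which marks a stage of oligodendrocyte precursors, was at 0.348, 0.458 and 0.111 CPM in control and 1.04, 0.881 and 0.982 CPM in knockout libraries; the knockout libraries were alike and all higher (log2 fold change 1.65 with SE 0.38, adjusted p = 0.0121 in edgeR). Control libraries held 25, 34 and 8 counts of GPR17, so its knockout libraries were needed for it to pass the filter. GPR17 overlaps LIMS2 on the opposite strand. GPR62, an orphan, stood at 0.139, 0.229 and 0.222 CPM in control and 0.0973, 0.0128 and 0.0638 CPM in knockout libraries and passed narrowly downward (log2 fold change -1.76 with SE 0.55, adjusted p = 0.0460 in edgeR). It overlaps PCBP4, a far more abundant gene of the opposite strand, and it could be tested only because of its control libraries. The GPR62 call was lost in DESeq2 (adjusted p = 0.0719), with total count scaling (0.0519), without a filter (0.0630), and when control replicate 1, 2 or 3 (0.0574, 0.151 and 0.0901) or knockout replicate 2 or 3 (0.131 and 0.108) was left out.

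GPR161, GPR176 and GPR3 fell. GPR161, a ciliary receptor that restrains Hedgehog signalling through cyclic AMP (ENSG00000143147; chromosome 1, 168079543 to 168137667, minus strand), stood at 33.1, 28.9 and 23.96 CPM in control and 19.98, 17.9 and 16.7 CPM in knockout libraries. Groups did not overlap despite a wide control spread, and it fell 1.57-fold (log2 fold change -0.65 with SE 0.12, adjusted p = 0.00415 in edgeR). GPR176, an orphan of the circadian clock (ENSG00000166073; chromosome 15, 39799032 to 39920892, minus strand), was at 31.9, 33.4 and 31.5 CPM in control and 19.1, 19.8 and 18.2 CPM in knockout libraries, with tight groups and a 1.69-fold fall (log2 fold change -0.76 with SE 0.06, adjusted p = 4.26e-05 in edgeR). GPR3, which raises cyclic AMP without a known ligand, was at 6.32, 5.81 and 6.46 CPM in control and 5.09, 5.10 and 4.09 CPM in knockout libraries (log2 fold change -0.38 with SE 0.11, adjusted p = 0.0334 in edgeR). This small fall missed the threshold with total count scaling (adjusted p = 0.0595), without control replicate 1, 2 or 3 (0.0889, 0.0620 and 0.0638) and without knockout replicate 2 or 3 (0.0650 and 0.0885). Its relatives GPR6 and GPR12 had no counts, and GPR52 had 1.

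Receptors with a known small ligand or a peptide ligand were few. GPR15, a homing receptor of lymphocytes in the gut, stood at 0.209, 0.189 and 0.236 CPM in control and 0.625, 1.14 and 1.02 CPM in knockout libraries. It rose 4.39-fold (log2 fold change 2.13 with SE 0.30, adjusted p = 8.32e-04 in edgeR), with the lowest knockout library still above all controls. GPR39, a zinc receptor, was at 1.40, 1.19 and 1.54 CPM in control and 2.53, 2.57 and 2.30 CPM in knockout libraries and rose 1.79-fold (log2 fold change 0.84 with SE 0.14, adjusted p = 0.00238 in edgeR). GPR1, a receptor of the adipokine chemerin now named CMKLR2, stood at 0, 0.0539 and 0.0555 CPM in control and 0.181, 0.204 and 0.204 CPM in knockout libraries, and control libraries were at or near the floor (log2 fold change 2.37 with SE 0.61, adjusted p = 0.0202 in edgeR). GPR1 could be tested only because of its knockout libraries. Without control replicate 2, knockout replicate 2 or knockout replicate 3 the GPR1 adjusted p was 0.0524, 0.0682 and 0.0581. GPR55, a receptor for lysophosphatidylinositol, was the sole tested gene of 11 that sense lipids, fatty acids or small metabolites, at 0.499 ± 0.140 (control) and 0.362 ± 0.0508 CPM (knockout) (log2 fold change -0.46, 95% interval -1.12 to 0.20, adjusted p = 0.289 in edgeR). Of the others GPR31, GPR42 and GPR119 had no counts. The proton-sensing receptors GPR4, GPR65 and GPR132 were below the filter.

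Less studied class A receptors supplied much of the rest. GPR160 (ENSG00000173890; chromosome 3, 170037929 to 170085403, plus strand) stood at 1.36, 1.19 and 1.47 CPM in control and 3.38, 3.40 and 4.41 CPM in knockout libraries and rose 2.78-fold (log2 fold change 1.48 with SE 0.16, adjusted p = 1.53e-04 in edgeR), without overlap. GPR153 (ENSG00000158292; chromosome 1, 6247346 to 6260975, minus strand) went the other way, at 16.2, 14.6 and 14.1 CPM in control and 7.68, 8.29 and 7.15 CPM in knockout libraries, a 1.94-fold fall with no overlap (log2 fold change -0.96 with SE 0.09, adjusted p = 7.27e-05 in edgeR). GPR63 rose from 3.72 ± 0.0778 to 5.19 ± 0.616 CPM (log2 fold change 0.48, adjusted p = 0.0117 in edgeR). GPR135 rose from 2.20 ± 0.372 to 3.32 ± 0.622 CPM (log2 fold change 0.59, adjusted p = 0.0352 in edgeR); it overlaps L3HYPDH on the same strand. GPR19 fell from 4.11 ± 0.485 to 2.71 ± 0.613 CPM (log2 fold change -0.60, adjusted p = 0.0360 in edgeR). The GPR135 call was lost without control replicate 1 or 3 (adjusted p = 0.0944 and 0.0705) or knockout replicate 2 (0.129). That of GPR19 was lost without control replicate 2 or 3 (0.129 and 0.0596) or knockout replicate 1 or 2 (0.0597 and 0.0736).

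Of 9 proteins of inner membranes or atypical fold that share the GPR name all were tested; none rose, 2 fell and 7 did not pass. The share called was 22.2%, near the 28% of all tested genes and below the 33% of tested protein-coding genes. GPR107, a Golgi and endosome protein, was the most abundant member per length in control libraries and stood at 139, 135 and 137 CPM in control and 145, 142 and 137 CPM in knockout libraries, with overlapping groups (log2 fold change 0.05, 95% interval -0.08 to 0.17, adjusted p = 0.598 in edgeR). GPR180 averaged 65.4 ± 7.68 (control) and 72.4 ± 6.39 CPM (knockout) (log2 fold change 0.15, 95% interval -0.08 to 0.37, adjusted p = 0.335 in edgeR) and GPR108 averaged 25.8 ± 1.95 (control) and 23.5 ± 0.495 CPM (knockout) (log2 fold change -0.14, 95% interval -0.30 to 0.03, adjusted p = 0.213 in edgeR). GPR89A and GPR89B code for near-identical Golgi pH regulators, so that reads may be shared or discarded between them. They averaged 30.5 ± 1.77 (control) and 32.9 ± 2.12 CPM (knockout) (log2 fold change 0.11, 95% interval -0.06 to 0.28, adjusted p = 0.338 in edgeR) and 28.4 ± 1.07 to 30 ± 0.859 CPM (log2 fold change 0.08, 95% interval -0.07 to 0.22, adjusted p = 0.421 in edgeR). Lysosomal members are also in this group. GPR155, a cholesterol sensor of the lysosome membrane (ENSG00000163328; chromosome 2, 174431571 to 174487094, minus strand), stood at 3.23, 3.37 and 3.51 CPM in control and 1.58, 1.46 and 1.53 CPM in knockout libraries, which put it 2.21-fold lower with no overlap (log2 fold change -1.14 with SE 0.11, adjusted p = 9.42e-05 in edgeR). GPR137, a lysosomal membrane protein, was at 16.3, 17.2 and 16.4 CPM in control and 13.8, 13.9 and 12.98 CPM in knockout libraries and fell 1.23-fold (log2 fold change -0.29 with SE 0.07, adjusted p = 0.0114 in edgeR), though without control replicate 2 its adjusted p was 0.0658. GPR137 overlaps BAD on the opposite strand. GPR137B averaged 21.1 ± 0.329 (control) and 18.7 ± 0.345 CPM (knockout), with groups that did not overlap and a small difference that did not pass (log2 fold change -0.18, 95% interval -0.32 to -0.04, adjusted p = 0.0586 in edgeR), and GPR137C averaged 1.29 ± 0.215 (control) and 1.12 ± 0.287 CPM (knockout) (log2 fold change -0.21, 95% interval -0.72 to 0.29, adjusted p = 0.539 in edgeR).

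GPR158, a class C glycine receptor of neurons, did not pass. It was well expressed, at 22.4, 21.1 and 21.3 CPM in control and 21.2, 22.1 and 19.8 CPM in knockout libraries, and its groups overlapped (log2 fold change -0.04, 95% interval -0.20 to 0.12, adjusted p = 0.744 in edgeR). Further tested members that did not pass were GPR75, GPR85, GPR146, GPR157 and GPR162. Of these GPR75 passed without knockout replicate 1 (adjusted p = 0.0148, log2 fold change -0.63, against 0.131 with all libraries).

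**Figure D4:**
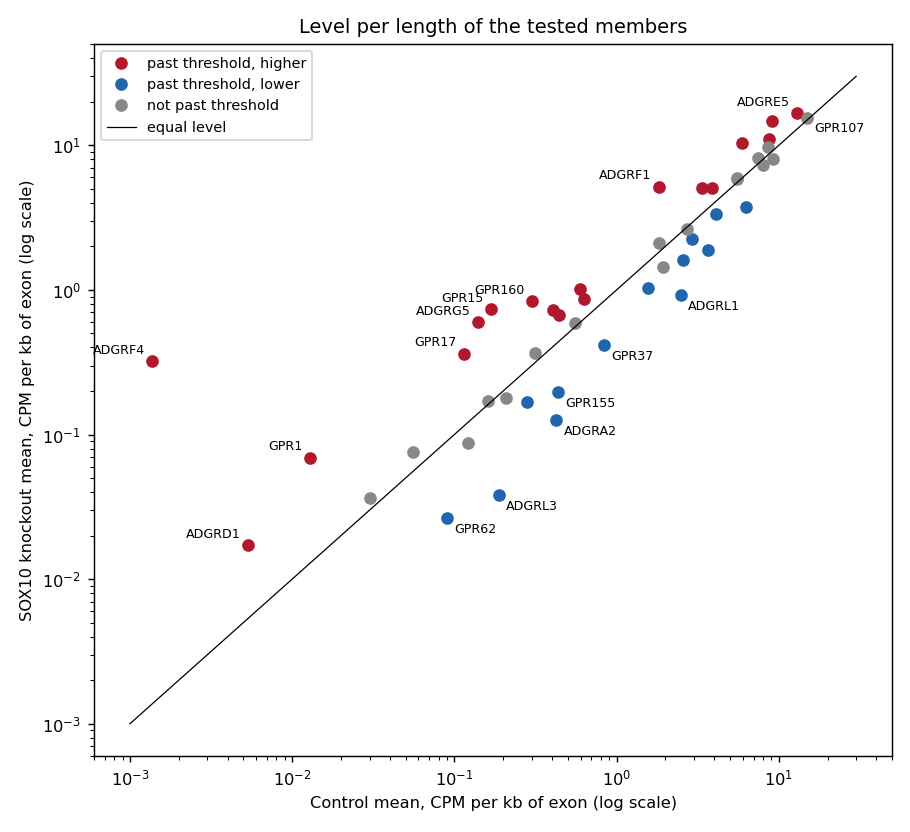
Mean level per length, in CPM per kb of exon, in control (horizontal) and knockout libraries (vertical), both on log scales, for the tested members reported here. Points above the line of equal level are higher in knockout libraries. GPR107 and ADGRE5 stand at the top in both groups, and ADGRF4 lies farthest from the line.

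Levels of different members can be compared per length of exon. In control libraries GPR107 came first with 15 CPM per kb, then ADGRE5 with 12.99. GPR137B (9.15), ADGRG1 (9.10), ADGRG6 (8.72) and ADGRA3 (8.57) followed, and these 4 means differed by less than the SD of ADGRA3 (0.661 CPM per kb). In knockout libraries ADGRE5 came first with 16.7 CPM per kb, then GPR107 with 15.5 and ADGRG1 with 14.6. ADGRF1 moved from rank 23 to rank 12 of the 49 tested members, ADGRL2 from 10 to 5, and GPR176 from 9 to 15. These ranks are of group means, and exon length counts every annotated exon of a gene, used or not.

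The members that were not tested had few or no counts. Of the 36 members with counts below the filter, 27 had at least 3 counts in all, and the highest level in any library was 0.209 CPM, for the readthrough gene GPR75-ASB3, whose exons are shared with GPR75. None of the 36 passed edgeR without a filter or DESeq2. The 22 members with 0 counts were ADGRA1, ADGRD2, ADGRF2, ADGRG4, GPR6, GPR12, GPR21, GPR25, GPR26, GPR27, GPR31, GPR33, GPR42, GPR50, GPR101, GPR119, GPR139, GPR142, GPR148, GPR149, GPR152 and GPR171. A count of 0 allows a level of up to 0.0417 CPM per library.

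Molecules that adhesion receptors bind changed in both directions. Of 25 listed binding partners 23 were tested, 8 of them higher and 7 lower. FLRT3, a latrophilin ligand, stood at 116, 113 and 111 CPM in control and 12.3, 12.7 and 11.4 CPM in knockout libraries and fell 9.32-fold (log2 fold change -3.22 with SE 0.07, adjusted p = 4.40e-08 in edgeR). In the same libraries ADGRL3 and ADGRL1 were lower, while ADGRL2, more abundant than either, rose from 46.0 ± 2.28 to 81.0 ± 3.82 CPM. RTN4RL1, a Nogo receptor relative, rose from 0.527 ± 0.0781 to 3.26 ± 0.218 CPM (log2 fold change 2.63, adjusted p = 4.28e-06 in edgeR). TGM2, the transglutaminase that binds ADGRG1, rose from 143 ± 9.89 to 222 ± 17.01 CPM (log2 fold change 0.64, adjusted p = 4.26e-04 in edgeR). COL4A1, a collagen IV gene of basement membrane, to which ADGRG6 binds, averaged 171 ± 29.1 (control) and 149 ± 19.2 CPM (knockout) and missed the threshold (log2 fold change -0.20, 95% interval -0.51 to 0.10, adjusted p = 0.319 in edgeR). COL4A2, the other listed collagen IV gene, was more abundant and fell from 261 ± 41.5 to 179 ± 20.3 CPM (log2 fold change -0.54, adjusted p = 0.0126 in edgeR). Also named here, after their values were seen, are CD55, the ADGRE5 ligand, which rose from 94.3 ± 8.83 to 143 ± 8.84 CPM (log2 fold change 0.60, adjusted p = 7.25e-04 in edgeR), and the teneurin gene TENM2, which rose from 9.08 ± 2.19 to 20.6 ± 2.31 CPM (log2 fold change 1.18, adjusted p = 8.74e-04 in edgeR). TENM3, a more abundant teneurin gene, fell from 67.5 ± 11.3 to 48.8 ± 8.29 CPM, with overlapping groups (log2 fold change -0.47, adjusted p = 0.0476 in edgeR). TENM4, tested only because of its knockout libraries, rose from 0.0229 ± 0.00777 to 0.229 ± 0.0444 CPM (log2 fold change 3.22, adjusted p = 9.73e-04 in edgeR). TENM1 did not pass (log2 fold change -0.13, adjusted p = 0.618 in edgeR).

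Downstream of the receptors, G protein subunit genes that changed were mostly lower. Of 28 listed, 23 were tested, 2 higher and 8 lower, with a median log2 fold change of -0.12. GNAS, the stimulatory alpha subunit that raises cyclic AMP, stood at 1533, 1469 and 1371 CPM in control and 746, 713 and 670.1 CPM in knockout libraries. Its groups were far apart and it fell 2.05-fold (log2 fold change -1.04 with SE 0.07, adjusted p = 9.13e-06 in edgeR). GNAI1, an inhibitory alpha subunit, went the other way, from 13.6 ± 0.715 to 27.8 ± 0.744 CPM (log2 fold change 1.03, adjusted p = 8.84e-06 in edgeR). GNG7, a gamma subunit, fell from 2.29 ± 0.164 to 0.195 ± 0.0581 CPM (log2 fold change -3.53, adjusted p = 5.50e-06 in edgeR). GNG12 was the most abundant subunit that did not pass, at 611 ± 27.8 (control) and 547 ± 16.1 CPM (knockout) (log2 fold change -0.16, 95% interval -0.30 to -0.02, adjusted p = 0.0893 in edgeR). Of 10 receptor kinases and arrestin family genes 9 were tested, 1 higher and 4 lower. GRK5, a kinase that switches off active receptors, fell from 22.1 ± 2.40 to 10.4 ± 1.03 CPM (log2 fold change -1.08, adjusted p = 1.01e-04 in edgeR), ARRB1, beta-arrestin 1, rose from 10.3 ± 1.09 to 18.2 ± 0.516 CPM (log2 fold change 0.81, adjusted p = 1.77e-04 in edgeR) and ARRB2 fell from 21.7 ± 0.466 to 17.2 ± 0.639 CPM (log2 fold change -0.34, adjusted p = 0.00460 in edgeR). ARRDC3 averaged 36.2 ± 1.88 (control) and 40.3 ± 2.61 CPM (knockout) and missed the threshold (log2 fold change 0.15, 95% interval -0.01 to 0.32, adjusted p = 0.161 in edgeR).

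Few genes of listed ligands were expressed. Of 9 genes for ligands of GPR-named receptors or the enzymes that make them 3 were tested, 1 higher and 1 lower. PSAP, the prosaposin gene, was abundant at 407 ± 17.8 (control) and 368 ± 5.69 CPM (knockout) and did not pass (log2 fold change -0.15, 95% interval -0.28 to -0.01, adjusted p = 0.102 in edgeR). GPC4, a glypican that binds GPR158, fell from 4.68 ± 0.357 to 3.21 ± 0.557 CPM (log2 fold change -0.55, adjusted p = 0.0193 in edgeR), and PCSK1N, whose peptide binds GPR171, rose from 0.105 ± 0.00715 to 0.219 ± 0.0259 CPM (log2 fold change 1.04, adjusted p = 0.0437 in edgeR), while GPR171 itself had no counts. PCSK1N could be tested only because of its knockout libraries. Among 11 scaffold and effector genes 10 were tested, 3 higher and 4 lower. ELMO1, an engulfment adaptor of subfamily B receptors, fell from 60.9 ± 5.18 to 37.5 ± 2.05 CPM (log2 fold change -0.70, adjusted p = 2.57e-04 in edgeR), and TUB, of the family that brings receptors into cilia, from 10.9 ± 1.15 to 6.88 ± 0.419 CPM (log2 fold change -0.66, adjusted p = 0.00134 in edgeR). DLG1, a PDZ scaffold, rose from 73.3 ± 0.920 to 96.7 ± 2.75 CPM (log2 fold change 0.40, adjusted p = 7.65e-04 in edgeR), and TULP3, the ciliary carrier of GPR161, averaged 45.4 ± 1.54 (control) and 42.3 ± 1.69 CPM (knockout) and missed the threshold (log2 fold change -0.10, 95% interval -0.24 to 0.04, adjusted p = 0.289 in edgeR).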

How the data were processed

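RNA was sequenced from 6 libraries, 3 per group, made with a stranded kit for mRNA, per the labels' protocols. HISAT2, HTSeq and the build hg38 are named, per the submitters' processing notes; versions, strand setting and annotation release were not given in the sources used here, and if counting ignored strand, overlapping genes on opposite strands cannot be told apart. The table deposited by the authors holds raw, unnormalized counts for each gene without summary lines. All 58721 identifiers occur in GENCODE release 29 (GRCh38, the same assembly as hg38), which gave symbols, types, coordinates and exon lengths.

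Counts were fitted with edgeR 4.0.16 in R 4.3.3 (filterByExpr, TMM, two-sided quasi-likelihood test without covariates, adjustment over all 19263 genes tested, threshold 0.05). Intervals of 95% and standard errors came from the same fit. Library totals of 70075002 to 78148565 counts set the precision. Of 49 tested members, 14 overlap another tested gene, 4 of them on the same strand and 10 on the opposite one. Members and lists were chosen with earlier results of these data known. Named were all members past the threshold, the 8 most abundant tested members that did not pass, and from each partner list up to 3 with the smallest p and the most abundant that did not pass; further tested members are listed by name, and some genes are not reported here. Marker sums without the gene that was highest in control, and the markers given with values, were added after the data were seen. Promoters were those of the 2 members with the largest rise and the 2 with the largest fall past the threshold, of at least 1 CPM, off chromosome 8 and with a RefSeq entry. Alternatives were DESeq2 1.42.0, limma-voom (limma 3.58.1), other scalings and filters, the replicate number as a block, and leaving out each library. On simulated counts of 19263 genes known changes of 1.5-fold were called in 38 of 67 genes, of 2-fold in 49 of 67 and of 4-fold in 61 of 66, and 18 of 19063 unchanged genes were called as well. No other genes were changed in the simulation, while 28% of tested genes were called in the data, so these rates need not hold there. Tables and plots were made in Python 3.11.15 with pandas 2.3.3, scipy 1.17.1 and matplotlib 3.10.9.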

Additional observations from a re-analysis of the deposited data

How the results depend on the processing

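Over the 13 alternatives the number of members past the threshold ran from 14 to 21 higher and from 9 to 17 lower, each within 1.5 times of the reported 18 and 13. Of the 31 members called, 24 kept direction and call in every alternative that tested them, 7 lost the call in 1 or more, and none reversed. At least 1 CPM in 3 libraries left 40 members tested, 26 of them called, all of these also called above. The median over tested members was 0.15 with total count scaling and 0.08 to 0.13 when a library was left out. GPR158, not called, was at 0.0038 with total count scaling and ran from -0.065 to 0.0049 when a library was left out, above 0 without knockout replicate 3. GPR162, not called, ran from -0.21 to 0.28, below 0 without control replicate 2 (-0.15) or knockout replicate 1 (-0.21). Over all genes, leaving out a library gave 1986 to 2935 higher and 1794 to 2958 lower, the lowest count of lower genes without knockout replicate 2. Calls of the partner lists stayed within 10 to 20 higher and 16 to 31 lower, against 15 and 24.

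Libraries that share a replicate number deviated together for numbers 1 (correlation of deviations from the group means 0.55) and 3 (0.59) but not 2 (0.02). Control replicate 1 with knockout replicate 3 gave -0.55, and control replicate 3 with knockout replicate 1 gave -0.58. Control replicate 2 correlated best with knockout replicate 1 (0.15). Deviations from a group mean cancel within the group, so these correlations cannot decide whether the numbers pair libraries. The main fit used no pairing, and calls that differ with the block rest on that choice. With the replicate block 4637 genes were higher and 5176 lower, and 38 members passed, the 31 above and 7 more, among them ADGRA3 (adjusted p = 1.48e-05), GPR75, GPR89A, GPR108, GPR137B and GPR180. Group means of ADGRD1, GPR1 and GPR62 were below 0.3 CPM, near the floor of 3 counts; the part of depth in their lost calls was not tested, and GPR3, GPR19, GPR135 and GPR137, at higher levels, lost theirs in some alternatives too.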

Other observations

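Relatives of these receptors that carry other symbols were looked at after the values above were known. The CELSR genes, cadherin-like adhesion receptors of planar cell polarity, did not pass: CELSR1 averaged 15.7 ± 2.52 (control) and 12.6 ± 1.46 CPM (knockout) (log2 fold change -0.32, 95% interval -0.62 to -0.02, adjusted p = 0.109 in edgeR), CELSR2 averaged 14.2 ± 2.63 (control) and 15.1 ± 3.39 CPM (knockout) (log2 fold change 0.09, 95% interval -0.33 to 0.50, adjusted p = 0.777 in edgeR) and CELSR3 averaged 9.67 ± 1.33 (control) and 9.73 ± 1.73 CPM (knockout) (log2 fold change 0.01, 95% interval -0.33 to 0.34, adjusted p = 0.977 in edgeR). Among class C orphans of the GPRC5 group, GPRC5C, an epithelial receptor, stood at 0.139, 0.148 and 0.180 CPM in control and 3.32, 4.44 and 3.71 CPM in knockout libraries. The 3 knockout libraries were all far above the controls, a 24.5-fold rise (log2 fold change 4.60 with SE 0.20, adjusted p = 8.69e-07 in edgeR). GPRC5A, a retinoic acid-induced receptor gene, was already abundant and rose from 606 ± 55.8 to 929 ± 81.7 CPM (log2 fold change 0.62, adjusted p = 0.00112 in edgeR). GPRC5B averaged 2.94 ± 0.0858 (control) and 2.22 ± 0.489 CPM (knockout) and missed the threshold (log2 fold change -0.41, 95% interval -0.79 to -0.02, adjusted p = 0.111 in edgeR), and GPRC5D was below the filter.

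Pseudogenes and antisense genes named after members were almost silent. ADGRF5P1, a transcribed pseudogene, averaged 0.472 ± 0.0860 (control) and 0.524 ± 0.155 CPM (knockout) (log2 fold change 0.16, 95% interval -0.51 to 0.82, adjusted p = 0.747 in edgeR) and ADGRE4P, of subfamily E, averaged 0.156 ± 0.0589 (control) and 0.264 ± 0.109 CPM (knockout) (log2 fold change 0.76, 95% interval -0.22 to 1.74, adjusted p = 0.241 in edgeR). Neither passed.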
